A study of Mus musculus with 12 samples.

Results

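Described here are 10 of the 21563 genes of the deposited comparison, which comprise genes typical of macrophages and a pair of lysozymes: the complement C1q chain genes C1qa, C1qb and C1qc, the surface receptor genes Csf1r, Cx3cr1, Mrc1 and Ptprc, the adaptor gene Tyrobp, and the lysozyme genes Lyz1 and Lyz2. They were found by gene name, and all 10 were present. The set was selected with measured values of the same tissue contrast in view, so the differences of these 10 genes are given as a description, with no test. The measurements came from 6 libraries of the heart tube (HT) and 6 of the posterior second heart field (pSHF), all from wild-type (WT) embryos of CD1 mice at the E10.0 stage. The heart tube is the beating early heart, and the pSHF is mesoderm next to it from which atrial cells, those of the septum included, are drawn. All animals of both groups shared strain, genotype and age, and no transgene or treatment was named. Per the labels' protocols the tissues were microdissected, with no cell sort named, both tissues of a pair came from one embryo, and poly-A RNA was sequenced with single-end reads of 50 bases. The labels do not say whether a library holds 1 embryo or a pool, so the spread between libraries may be partly technical.

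Macrophages are phagocytes that clear dying cells and shape growing tissue, and in the mouse embryo the earliest of them arise in the yolk sac and enter the organs with the blood. Their survival depends on Csf1r, the receptor for the growth factors Csf1 and Il34, and in many tissues they are the main source of C1q, the recognition part of the classical complement pathway. Lysozymes cut the bacterial cell wall, and in the adult mouse Lyz2 is the lysozyme of macrophages and granulocytes, whereas Lyz1 is known from Paneth cells of the gut.

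The promoter sequences of the lysozyme pair, of 1 C1q chain and of the mannose receptor are shown because members that were higher in HT and members that were higher in pSHF carried the same short motif. Each line gives the 250 bases before the start of the gene from RefSeq, build GRCm38.p6, 5′ to 3′ along the gene's own strand. The capitals mark the motif AGGAAGT, the core bound by ETS factors of the PU.1 type, or its reverse complement ACTTCCT. This motif was picked after the sequences had been seen. The window of Lyz1 is chr10:117292869-117293118, that of Lyz2 chr10:117282273-117282522 and that of C1qb chr4:136886201-136886450, all on the minus strand, and that of Mrc1 is chr2:14229164-14229413 on the plus strand.
Lyz1: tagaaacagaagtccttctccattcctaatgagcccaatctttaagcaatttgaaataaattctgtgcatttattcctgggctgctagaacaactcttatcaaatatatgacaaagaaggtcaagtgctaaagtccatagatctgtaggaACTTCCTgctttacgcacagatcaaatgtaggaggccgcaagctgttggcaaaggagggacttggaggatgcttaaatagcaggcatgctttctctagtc
Lyz2: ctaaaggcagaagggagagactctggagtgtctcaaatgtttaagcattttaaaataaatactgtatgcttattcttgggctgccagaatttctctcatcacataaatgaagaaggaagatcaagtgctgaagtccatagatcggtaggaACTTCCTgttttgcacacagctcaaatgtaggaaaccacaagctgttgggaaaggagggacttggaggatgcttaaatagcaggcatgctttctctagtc
C1qb: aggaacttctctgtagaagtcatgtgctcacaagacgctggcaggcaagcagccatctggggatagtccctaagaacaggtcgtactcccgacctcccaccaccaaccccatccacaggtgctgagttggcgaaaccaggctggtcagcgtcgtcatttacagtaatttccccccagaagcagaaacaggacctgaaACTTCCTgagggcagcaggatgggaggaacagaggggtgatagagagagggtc
Mrc1: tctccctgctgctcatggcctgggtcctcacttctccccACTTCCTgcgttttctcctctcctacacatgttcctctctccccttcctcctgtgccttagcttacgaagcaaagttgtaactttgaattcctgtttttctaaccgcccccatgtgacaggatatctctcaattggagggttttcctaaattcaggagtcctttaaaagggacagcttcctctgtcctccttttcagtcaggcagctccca

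In both lysozyme genes the motif began 100 bases before the start. It began 53 bases before the start of C1qb and 211 bases before that of Mrc1. On either strand it was found in 6 of the 7 members that had a promoter in the RefSeq table, C1qc and Ptprc being the others and Cx3cr1 the one without it, and in 2525 of 32851 promoters of the table (7.69%). The windows of Lyz1 and Lyz2 were identical at 200 of 248 aligned bases (80.6%). C1qa, Csf1r and Tyrobp were not matched in the promoter table. A match is a description of the letters in this window and not a measured binding site.

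All 10 members separated the tissues without overlap, in opposite directions. The 8 macrophage members other than the lysozymes were higher in every pSHF library than in every HT library, by 2.51-fold to 4.61-fold between the means. Both lysozymes were higher in every HT library than in every pSHF library. Across the 14909 genes tested with limma on log2(normalized gene count + 1), 38.3% were higher in HT and 40.0% higher in pSHF at an adjusted p under 0.05, every HT library lay above every pSHF library for 30.1%, and every pSHF library above every HT library for 30.3%. Since the members were selected on this contrast, nothing is read from their count against those shares. Values are deposited normalized gene counts (read counts divided by a size factor of the library, with a further factor of unstated origin for many genes). In whole tissue, fewer macrophages and less RNA per macrophage cannot be told apart.

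**Figure D1:**
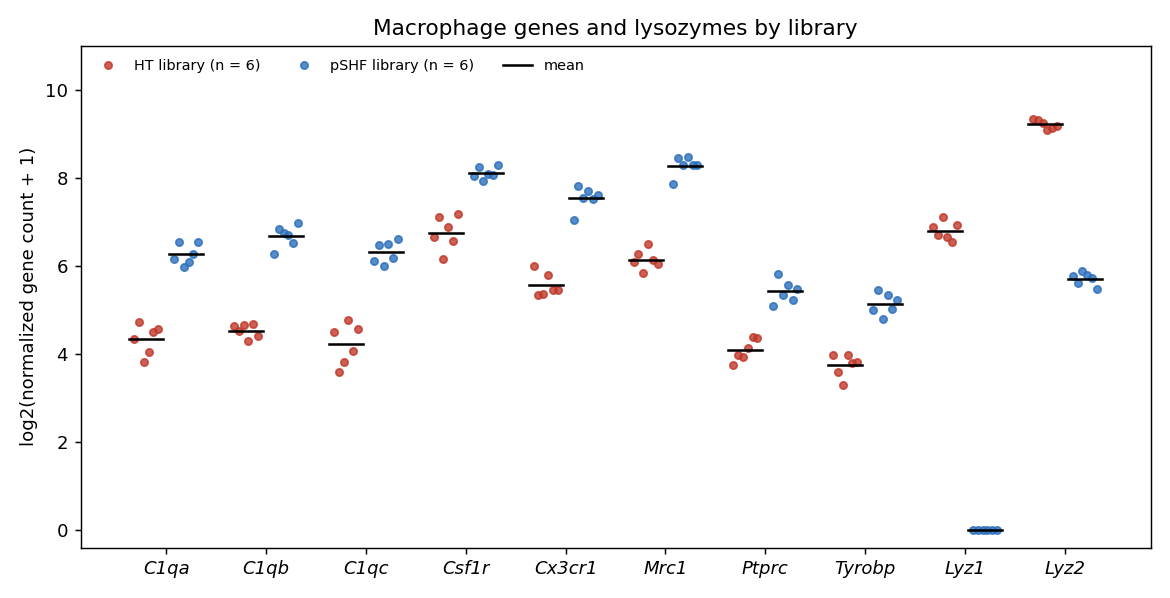
Level of each of the 10 members in each library on the log2(normalized gene count + 1) scale, with HT libraries in red left of pSHF libraries in blue and the mean of 6 libraries as a bar. The 8 macrophage members lie higher in pSHF, and Lyz1 and Lyz2 lie higher in HT, with Lyz1 at 0 in all 6 pSHF libraries.

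The 3 C1q chain genes encode the A, B and C chains that combine into one C1q molecule, and they lie within one cluster on chromosome 4 (GRCm38), all on the minus strand: C1qb at 136880129 to 136886187, C1qc at 136889804 to 136893065 and C1qa at 136895917 to 136898803. C1qb had 18.5, 22.9 and 24.7 normalized gene counts (lowest, median and highest) in HT libraries, against 76.7, 105.2 and 124.6 in pSHF libraries. Its means were 22.3 ± 2.43 in HT and 102.6 ± 16.9 in pSHF (SD, n = 6 each), a log2 difference (HT minus pSHF) of -2.14. The 2 ranges were far apart: the lowest pSHF library was 3.11-fold above the highest HT library.

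C1qa averaged 19.6 ± 4.57 normalized gene counts in HT and 76.9 ± 13.1 in pSHF (SD, n = 6 each). C1qc averaged 18.4 ± 5.98 in HT and 79.4 ± 13.4 in pSHF (SD, n = 6 each). The groups did not overlap for either chain, and the log2 differences of -1.93 for C1qa and -2.09 for C1qc were close to that of C1qb. The ratio of C1qa to C1qb in a library was 0.545 to 1.15 in HT and 0.576 to 0.917 in pSHF, and these ranges overlap. C1qc was the most variable member in HT, where its highest library was 2.39 times its lowest. Dividing by the worth of 1 read in each library gave 10 to 27 reads of C1qc in HT, so counting error alone is large at that level. Summed over the chains, C1q stood at 50.7 to 65.7 normalized gene counts in HT libraries and at 215.2 to 313.9 in pSHF libraries.

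Csf1r, the growth factor receptor on which macrophages depend, had 70.3, 108.5 and 144.1 normalized gene counts (lowest, median and highest) in HT libraries, against 243.8, 270.7 and 312.2 in pSHF libraries. The means were 110.4 ± 27.7 in HT and 277.3 ± 25.7 in pSHF (SD, n = 6 each), with a log2 difference of -1.36, and the pSHF mean was 2.51-fold the HT mean. This was the smallest ratio of means among the 8 members that were higher in pSHF, while on the log2 scale Ptprc had the smallest difference, at -1.33. Of the 5776 windows of 50 bases in Csf1r exons, 824 (14.3%) also occur in Hmgxb3 on the opposite strand. The protocol calls the reads stranded, while the named kit by its design does not mark strand, so reads of these genes may not be told apart there.

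Mrc1, the mannose receptor of tissue macrophages, had 56.5, 68.0 and 89.6 normalized gene counts (lowest, median and highest) in HT libraries, against 230.2, 314.9 and 353.7 in pSHF libraries. Its means were 70.5 ± 11.3 in HT and 312.7 ± 44.5 in pSHF (SD, n = 6 each), a log2 difference of -2.13. The lowest pSHF library, MR13, stood below the other 5, which held 312.1 to 353.7. Even so, it lay 2.57-fold above the highest HT library.

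Cx3cr1, the receptor for the chemokine Cx3cl1 and a marker of early macrophages, ranged over 39.3 to 62.8 normalized gene counts in HT and 130.4 to 222.9 in pSHF, with means of 47.0 ± 9.42 in HT and 187.3 ± 31.5 in pSHF. Ptprc, the CD45 phosphatase found on nucleated blood cells in general, ranged over 12.5 to 19.99 in HT and 33.1 to 55.4 in pSHF, with means of 16.3 ± 3.02 in HT and 42.5 ± 7.97 in pSHF. Tyrobp, the adaptor also called DAP12 that carries signals of receptors such as Trem2, ranged over 8.81 to 14.7 in HT and 26.6 to 42.9 in pSHF, with means of 12.5 ± 2.26 in HT and 34.6 ± 6.14 in pSHF (SD, n = 6 each for all 3 genes). None of these ranges overlapped. Divided by the worth of 1 read in each library, Tyrobp amounted to 8 to 15 reads in HT, so its counting error is also large there. The log2 differences were -1.97 for Cx3cr1, -1.33 for Ptprc and -1.40 for Tyrobp.

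By the ratio of the means, the C1q chains, Cx3cr1 and Mrc1 were 3.92-fold to 4.61-fold higher in pSHF, and Csf1r, Ptprc and Tyrobp 2.51-fold to 2.77-fold. Ratios of members within a library do not depend on its size factor, but the further factor of unstated origin need not cancel in them. Csf1r was whole in 0, Cx3cr1 in 2 and Mrc1 in 4 of 12 libraries after division by the worth of 1 read (tolerance 0.1 reads). Csf1r stood at 1.24 to 2.22 times Mrc1 in HT libraries and at 0.772 to 1.14 times Mrc1 in pSHF libraries, with no overlap. Cx3cr1 stood at 0.517 to 0.940 times Mrc1 in HT and at 0.566 to 0.637 times Mrc1 in pSHF, and the pSHF range lay inside the HT range. Tyrobp relative to Csf1r was 0.0809 to 0.147 in HT and 0.109 to 0.146 in pSHF, again overlapping. The part of Hmgxb3 reads and of the further factor in the Csf1r ratio was not tested.

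The lysozymes ran the other way. Lyz2 had 541.8, 593.8 and 648.4 normalized gene counts (lowest, median and highest) in HT libraries, against 43.4, 52.5 and 58.4 in pSHF libraries. Its means were 596.5 ± 43.3 in HT and 51.4 ± 5.24 in pSHF (SD, n = 6 each), which is 11.6-fold and a log2 difference of 3.51. The lowest HT library lay 9.29-fold above the highest pSHF library. Relative to Csf1r in the same library, Lyz2 stood at 4.02 to 8.65 in HT and at 0.139 to 0.239 in pSHF.

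Lyz1 had 92.7, 109.5 and 136.6 normalized gene counts (lowest, median and highest) in HT libraries and was listed at 0 in all 6 pSHF libraries. The HT mean was 111.4 ± 16.2 (SD, n = 6), and no fold is given against a tissue listed at 0. Among all genes of the table it was the 1 gene that was at 0 in every pSHF library while averaging at least 50 in HT, whereas 4 genes were at 0 in every HT library while averaging at least 50 in pSHF. Divided by the worth of 1 read in each library, Lyz1 amounted to 93 to 124 reads in HT, and Lyz2 to 485 to 580 reads in HT and 48 to 68 reads in pSHF, all whole within 0.1 reads. The ratio of Lyz1 to Lyz2 was 0.160 to 0.225 in HT, with a mean of 0.187 ± 0.0249 (SD, n = 6). At that mean ratio the pSHF libraries would have held 8.11 to 10.9 normalized gene counts of Lyz1.

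**Figure D2:**
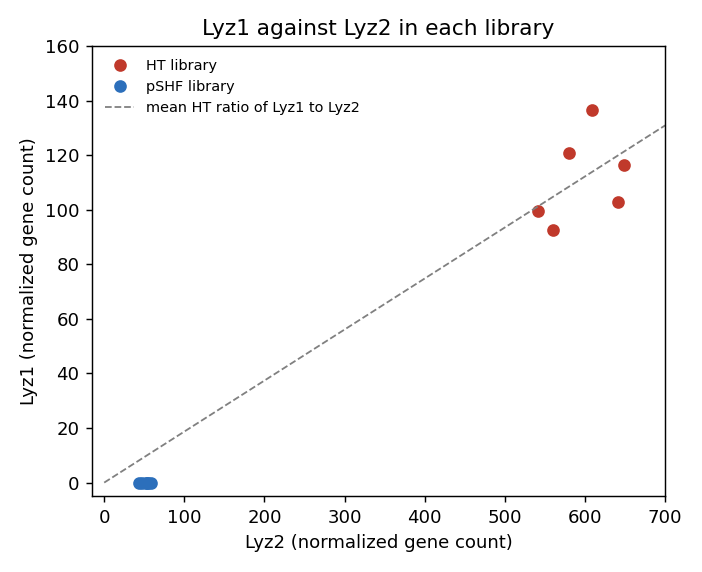
Normalized gene counts of Lyz1 (vertical axis) against Lyz2 (horizontal axis) in each of 6 HT (red) and 6 pSHF (blue) libraries, with a dashed line at the mean HT ratio of 0.187. The HT libraries scatter about the line, and the pSHF libraries lie on the horizontal axis between 43.4 and 58.4 normalized gene counts of Lyz2.

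The 2 lysozyme genes are neighbours on the minus strand of chromosome 10 (GRCm38), Lyz2 at 117277331 to 117282321 and Lyz1 at 117287797 to 117292868, with starts 10.5 kb apart. Their transcripts were identical at 1211 of 1262 aligned bases (96.0%) in the GENCODE set. Of the 50-base windows of Lyz1, 195 of 1214 (16.1%) also occur in Lyz2, and these make up 15.4% of the 1267 windows of Lyz2. Reads from these stretches could be given to either gene or to none, and how the authors treated them was not stated. The split between Lyz1 and Lyz2 is therefore uncertain, and the reference transcripts are not from the CD1 strain. The sum of the pair does not depend on how reads are split between them, though it would lack reads given to neither. It was 641.4 to 764.7 normalized gene counts in HT libraries and 43.4 to 58.4 in pSHF libraries.

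Levels were also expressed per kilobase of exon, with all annotated exons of a gene added up. That length can exceed the length of the transcript in use, so the order of different genes is approximate. C1qc has 1931 bases of annotated exon, C1qa 1040 and C1qb 1088, and the place of C1qc depends on that length. By this measure Lyz2 led in HT with 453.2 ± 32.9 normalized gene counts per kb and Lyz1 followed with 88.2 ± 12.8 (SD, n = 6). C1qb, Csf1r, C1qa and Tyrobp came next in HT at 18.8 to 20.5 per kb and did not differ beyond their spread, whose SD was 2.23 to 4.79. Mrc1, Cx3cr1 and C1qc formed a lower step of 9.54 to 11.1 per kb, and Ptprc, whose annotated exons add up to 18313 bases, was lowest at 0.888 ± 0.165. In pSHF the order began with C1qb at 94.3 ± 15.5 and C1qa at 74.0 ± 12.6 per kb, whose ranges overlap. Tyrobp, Mrc1 and Csf1r followed at 48.0 to 51.9 per kb and Cx3cr1, C1qc and Lyz2 at 39.1 to 41.6 per kb, and neighbours within each of these steps lay within their spread. Lyz2 was thus first of 10 in HT and eighth in pSHF.

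Among macrophage genes that are not members, more were higher in pSHF than in HT. Their summed level was higher in HT only with Lgmn counted. Of 42 such genes with a row used here (of 43 listed), 34 passed the filter of a mean of at least 5 normalized gene counts, and 7 of these were higher in HT, 23 were higher in pSHF and 4 were not called by limma at an adjusted p of 0.05. That is 20.6% higher in HT and 67.6% higher in pSHF, beside 38.3% and 40.0% of all genes tested. The median log2 difference was -0.89 beside -0.018 for all genes tested. This list and the other gene lists were chosen with earlier results of these data known, so the shares are a description. The 42 genes summed to 6924 to 8389 normalized gene counts in HT libraries and 5439 to 6205 in pSHF libraries. These sums averaged 7442 for HT and 5956 for pSHF. Lgmn held the top mean of the list on either side, at 2469 for HT and 864.3 for pSHF. Its gap was wider than the gap between the mean sums. The mean sum of the remaining genes was therefore not higher in HT. The transcription factor genes Maf and Irf8, which act in macrophage differentiation, were both higher in pSHF. In whole tissue, the cells that expressed them were not identified. The means of Maf were above those of Csf1r, which were 110.4 in HT and 277.3 in pSHF. Maf averaged 235.3 ± 30.2 in HT and 630.7 ± 64.0 in pSHF, a log2 difference of -1.42 ± 0.09 (limma SE, adjusted p = 6.86e-10), with no overlap between 6 and 6 libraries. Irf8 averaged 33.9 ± 10.8 in HT and 103.5 ± 11.7 in pSHF (log2 difference -1.64 ± 0.20, adjusted p = 1.76e-06), again with no overlap. Spi1, which encodes PU.1, averaged 17.7 ± 7.57 in HT and 30.9 ± 11.7 in pSHF with an adjusted limma p of 0.0272, and its libraries overlapped. The call of Spi1 was lost without HT library MR26 (adjusted p = 0.0649) or MR27 (0.0626), and without pSHF library MR13 (0.0676) or MR14 (0.0564).

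Receptor genes of the list showed the largest differences toward pSHF. Cd33, a sialic acid receptor, averaged 1.09 ± 1.72 normalized gene counts in HT and 11.1 ± 3.45 in pSHF, and Fcgr3, an Fc receptor, averaged 7.49 ± 4.18 in HT and 34.7 ± 5.61 in pSHF (SD, n = 6 each). Their limma log2 differences were -2.80 ± 0.43 for Cd33 (adjusted p = 2.68e-05) and -2.28 ± 0.37 for Fcgr3 (adjusted p = 4.91e-05), and in both genes every pSHF library lay above every HT library. Gpr34, Cd14 and Fcgr1 were also higher in pSHF, with log2 differences of -2.09, -2.10 and -1.94. Trem2, a receptor that signals through Tyrobp, averaged 4.77 ± 4.63 in HT and 10.8 ± 4.62 in pSHF with a log2 difference of -1.26 and an adjusted p of 0.0172, and its libraries overlapped. The lysosomal protease gene Ctss (-1.52) and the glycoprotein gene Cd68 (-0.92) were higher in pSHF without overlap. Cd33, Gpr34, Cd14 and Trem2 had HT means under 5 and passed the filter only through pSHF, which favoured a call toward pSHF. Under a minimum mean of 20, limma called 13 genes of the list higher in pSHF and 7 higher in HT.

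The 8 genes under the filter were Fcgr2b, Clec12a, Ms4a7, Timd4, Cd163, Siglech, Ccl3 and Ccl4. They averaged 0 to 1.75 normalized gene counts in HT and 0.835 to 5.56 in pSHF, and the pSHF mean was the higher one for each. Cd163, the haemoglobin scavenger receptor of mature macrophages, was near 0 in both tissues, with 0.185 ± 0.453 in HT and 1.01 ± 1.13 in pSHF. Folr2, a receptor of resident macrophages, had 14.7 ± 1.43 in HT and 12.1 ± 3.27 in pSHF and was not called (adjusted p = 0.207 by limma).

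The 7 genes of the list that were higher in HT included Ikzf1, Lgmn, Pf4, Itgb2, Cd53 and Lcp1. Ikzf1, the lymphoid and blood transcription factor Ikaros, averaged 828.3 ± 497.4 in HT and 109.4 ± 27.4 in pSHF, a log2 difference of 2.72 ± 0.34 (limma SE, adjusted p = 2.77e-06), with every HT library above every pSHF library. In HT it was lowest in library MR25, at 269.0, and highest in MR28R, at 1658.0, and over the 6 HT libraries it had the same order as the summed erythroid genes. Cd53 was instead lowest in MR28R and Lcp1 was highest in MR26, while Itgb2 was lowest in MR25 and highest in MR28R and Pf4 was lowest in MR25 and highest in MR30. Lgmn, the lysosomal protease legumain, averaged 2469 ± 166 in HT and 864.3 ± 70.3 in pSHF (log2 difference 1.51 ± 0.06, adjusted p = 2.49e-12) without overlap. Pf4, a chemokine of platelets and of some macrophages, averaged 498.6 ± 126.6 in HT and 272.2 ± 49.0 in pSHF (log2 difference 0.85, adjusted p = 2.24e-04) with overlapping libraries. The leukocyte membrane genes Itgb2 (0.82) and Cd53 (0.81) and the actin-bundling gene Lcp1 (0.34) had smaller differences, and the call of Lcp1 was lost after all libraries were scaled to an equal total (adjusted p = 0.128). The part of blood content in these 7 differences was not tested.

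**Figure D3:**
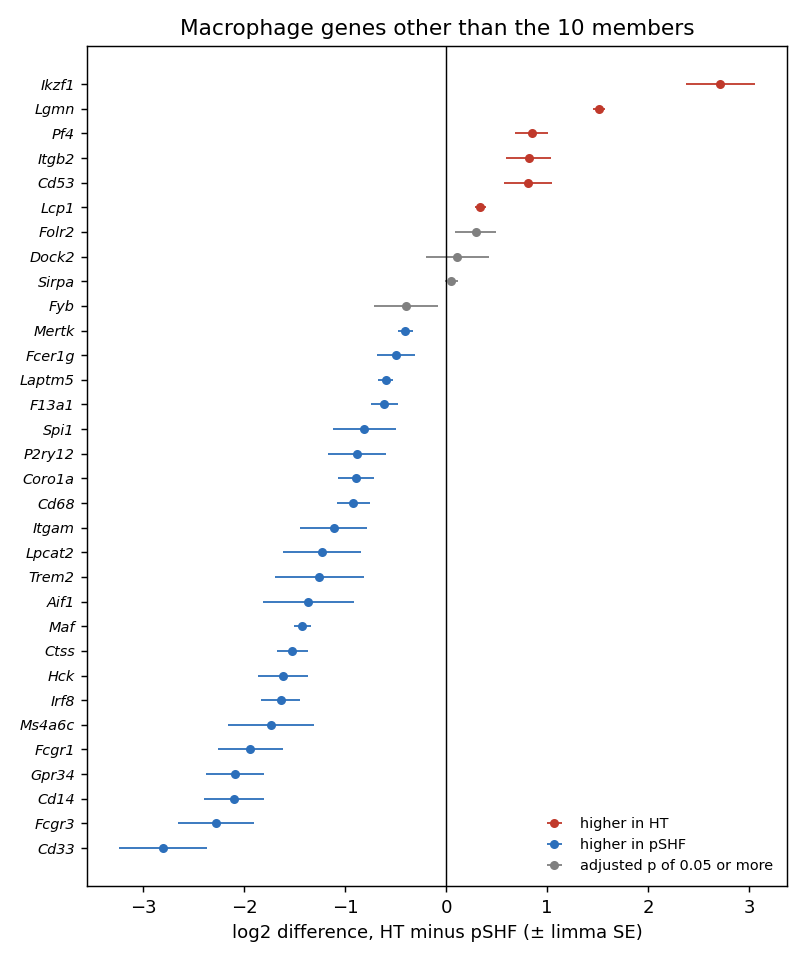
Log2 difference (HT minus pSHF, horizontal axis) of 32 of the 34 tested macrophage genes that are not members (1 gene higher in HT and 1 higher in pSHF are not drawn), with the limma SE as a bar, ordered from the highest value in HT at the top. Red marks 6 genes higher in HT, blue 22 higher in pSHF and grey the 4 with an adjusted p of 0.05 or more.

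Of the 3 genes for ligands of the member receptors, Csf1 and Cx3cl1 were higher in HT and Il34 was too low to test. Csf1, the main growth factor for Csf1r, had 624.0 to 806.4 normalized gene counts in HT libraries and 389.7 to 506.9 in pSHF libraries, with means of 716.8 ± 69.8 in HT and 442.1 ± 46.1 in pSHF (SD, n = 6 each). Its log2 difference was 0.70 ± 0.08 by limma (adjusted p = 8.04e-07), and no HT library fell within the pSHF range. Cx3cl1, the ligand of Cx3cr1, had 149.0 to 221.1 in HT and 31.0 to 69.7 in pSHF, a log2 difference of 1.77 ± 0.18 (adjusted p = 2.64e-07), likewise without overlap. Il34, the other ligand of Csf1r, was under the filter at 2.17 ± 1.29 in HT and 2.61 ± 2.49 in pSHF. In a library, Csf1r stood at 0.0948 to 0.225 times Csf1 in HT and at 0.581 to 0.689 times Csf1 in pSHF.

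Complement genes other than C1q were mixed. Of 17 tested of 18 listed, 5 (29.4%) were higher in HT, 9 (52.9%) were higher in pSHF and 3 were not called. Of all genes tested, 38.3% were higher in HT and 40.0% higher in pSHF. The median log2 difference of the list was -0.81. C1s1, a protease that acts with C1q, averaged 2.99 ± 4.86 in HT and 30.5 ± 8.16 in pSHF (log2 difference -3.66 ± 0.56, limma adjusted p = 2.33e-05), and Cd55, a surface inhibitor of complement, averaged 150.1 ± 30.1 in HT and 571.4 ± 75.0 in pSHF (-1.94 ± 0.12, adjusted p = 1.12e-09). Both separated the tissues, but C1s1 passed the filter only through pSHF. In the other direction, the inhibitor gene Cd59a was higher in HT without overlap (1.59 ± 0.11, limma adjusted p = 3.13e-09). It averaged 944.8 ± 184.0 in HT and 308.8 ± 30.4 in pSHF (SD, n = 6 each).

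Of the genes that flank the lysozyme pair, 4 of 11 were higher in HT, 6 were higher in pSHF and 1 (Frs2) was not called by limma (adjusted p = 0.0883), beside 38.3% and 40.0% of all genes tested. The nearest on each side, Yeats4 (-0.26) and Cpsf6 (-0.61), were higher in pSHF. Yeats4 averaged 1252 ± 24.5 in HT and 1503 ± 60.3 in pSHF, and Cpsf6 averaged 4973 ± 198 in HT and 7575 ± 322 in pSHF. Among the neighbours, the largest differences lay farther out. Lrrc10, a heart muscle gene 237 kb downstream of the Lyz2 start, averaged 1213 ± 88.2 in HT and 59.7 ± 9.40 in pSHF (log2 difference 4.33 ± 0.10, adjusted p = 2.17e-14), and Cpm, a membrane carboxypeptidase gene 347 kb upstream, averaged 71.9 ± 16.4 in HT and 655.8 ± 92.1 in pSHF (-3.19 ± 0.14, adjusted p = 1.11e-11). Rab3ip (0.99), Best3 (1.53) and Mdm2 (0.26) were higher in HT, and Slc35e3 (-0.63), Nup107 (-0.16) and Cct2 (-0.099) were higher in pSHF. Best3 passed the filter only through HT, with a pSHF mean of 2.48. The limma call of Cct2 was lost without HT library MR25 (adjusted p = 0.0503), without HT library MR26 (0.0578) or without pSHF library MR13 (0.0501), and Frs2 was called without HT library MR28R (0.0203). In the raw counts, edgeR gave Cct2 a log2 difference of 0.95, higher in HT (adjusted p = 1.14e-07). It gave Cpsf6 a log2 difference of -0.36 (adjusted p = 0.129) and called 0 of the neighbours higher in pSHF. After all libraries were scaled to an equal total, Mdm2 lost its call (limma adjusted p = 0.757) and Frs2 was called, with a log2 difference of -0.33 (adjusted p = 1.22e-06).

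**Figure D4:**
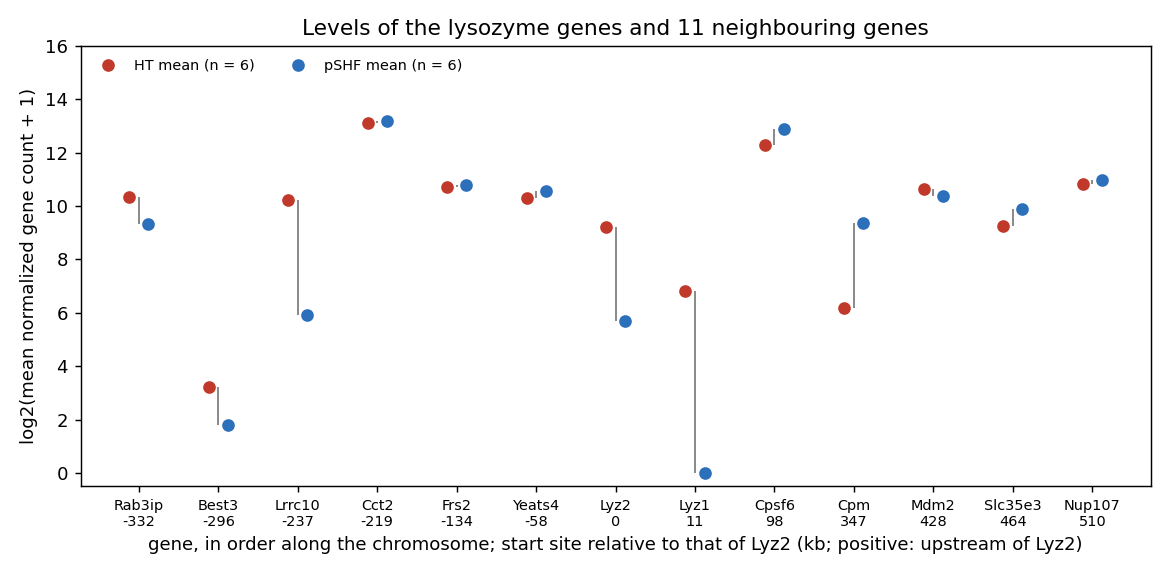
Mean level of Lyz1, Lyz2 and 11 neighbouring genes on the log2(normalized gene count + 1) scale in HT (red, left) and pSHF (blue, right), in order along the chromosome, with the distance of each start from that of Lyz2 in kb under the name. Large gaps toward HT stand at Lrrc10, Lyz2 and Lyz1, and the large gap toward pSHF stands at Cpm.

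None of the 8 lysozyme relatives (Lyzl1, Lyzl4, Lyzl6, Spaca3, Spaca5, Lalba, Lyg1 and Lyg2) passed the filter. Together they held only 0 to 2.32 normalized gene counts in HT libraries and 0 to 7.50 in pSHF libraries.

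Granulocytes also make Lyz2, and most of their defining genes were at or near 0: 9 of 12 were under the filter, among them Elane (0.362 ± 0.565 in HT and 0.309 ± 0.487 in pSHF), S100a8 (1.93 ± 1.96 in HT and 0.551 ± 0.855 in pSHF) and Ly6g (0 in HT and 0.123 ± 0.301 in pSHF). Ltf, also under it, averaged 4.63 ± 1.97 in HT and 0.886 ± 0.723 in pSHF without overlap. Ctsg averaged 2.91 ± 2.25 in HT and was at 0 in pSHF. Of the genes under the filter, Camp and Ly6g had the higher mean in pSHF and the others in HT. Under a minimum mean of 1, limma called 3 granulocyte genes higher in HT and 2 higher in pSHF. At that minimum, 5867 of all 16363 genes tested were higher in HT and 6333 higher in pSHF. Mpo, the granule peroxidase, was higher in HT with 63.4 ± 13.6 in HT and 35.2 ± 9.52 in pSHF (log2 difference 0.85, limma adjusted p = 0.00123). The granule protease gene Prtn3 and the receptor gene Csf3r were higher in pSHF, Prtn3 with 11.9 ± 6.06 in HT and 55.1 ± 8.62 in pSHF (-2.23, adjusted p = 1.1e-06) and Csf3r with 10.1 ± 3.15 in HT and 26.9 ± 10.9 in pSHF (-1.31, adjusted p = 6.79e-04). The 12 genes summed to 80.1 to 130.9 in HT libraries and 100.1 to 143.6 in pSHF libraries, and these ranges overlap. Their part in the lysozyme difference was not tested.

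Other blood lineages moved in both directions, beside 38.3% of all genes tested higher in HT and 40.0% higher in pSHF. All 11 erythroid genes were higher in HT, where they held 1.67 to 7.09% of the normalized gene counts of a library, against 0.363 to 0.702% in pSHF. Of 9 megakaryocyte genes, 8 were higher in HT and 1 (Gp1bb, log2 difference -0.51, limma adjusted p = 0.0239) was higher in pSHF, and their sum was 1477 to 3286 in HT and 831.9 to 1377 in pSHF. Gp9 (1.27) and Itga2b (1.25) led that list. Treml1 had the smallest difference toward HT (0.67, adjusted p = 0.0385). Its call was lost in 8 of the 12 fits that left out a library (HT libraries MR27, MR28R, MR29 and MR30 and pSHF libraries MR13, MR14, MR16 and MR17, adjusted p = 0.063 to 0.095), and that of Gp1bb was lost without pSHF library MR15 (adjusted p = 0.057).

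Among genes of blood progenitors, Gfi1b (2.68) and Tal1 (2.49), which act in red cell and platelet precursors, were higher in HT, as was Gata2, and Myb (-1.54), Runx1 (-0.90) and Kit (-0.64) were higher in pSHF. Cd34 was slightly higher in HT (0.16, limma adjusted p = 0.0134), and its difference turned to -0.081 after all libraries were scaled to an equal total. Of 8 lymphoid genes 5 were under the filter. Rag1, Cd79b and Cd79a were called, at mean levels of 1.30 to 5.25 in HT and 10.3 to 10.9 in pSHF. Rag1 and Cd79b passed the filter only through pSHF, and under a minimum mean of 20 limma called 0 lymphoid genes higher in pSHF. Of 11 endothelial genes 8 (72.7%) were higher in HT, led by Nfatc1 (2.48) and Tek (1.79), beside 38.3% of all genes tested. The 2 (18.2%) that were higher in pSHF were Cldn5 (-4.22) and Sox17 (-1.63), beside 40.0% of all genes tested. After all libraries were scaled to an equal total, 6 endothelial genes were higher in HT and 3 higher in pSHF. The sum of the 11 endothelial genes was 22068 to 27402 in HT and 14297 to 15818 in pSHF. Marker genes followed the tissue labels: all 10 heart muscle genes were higher in HT, such as Myl2 with 74284 ± 7499 in HT and 56.2 ± 35.5 in pSHF, and all 9 pSHF genes were higher in pSHF, such as Foxf1 with 14.4 ± 9.02 in HT and 2189 ± 337 in pSHF. The part of these cell types in the member differences was not tested.

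**Figure D5:**
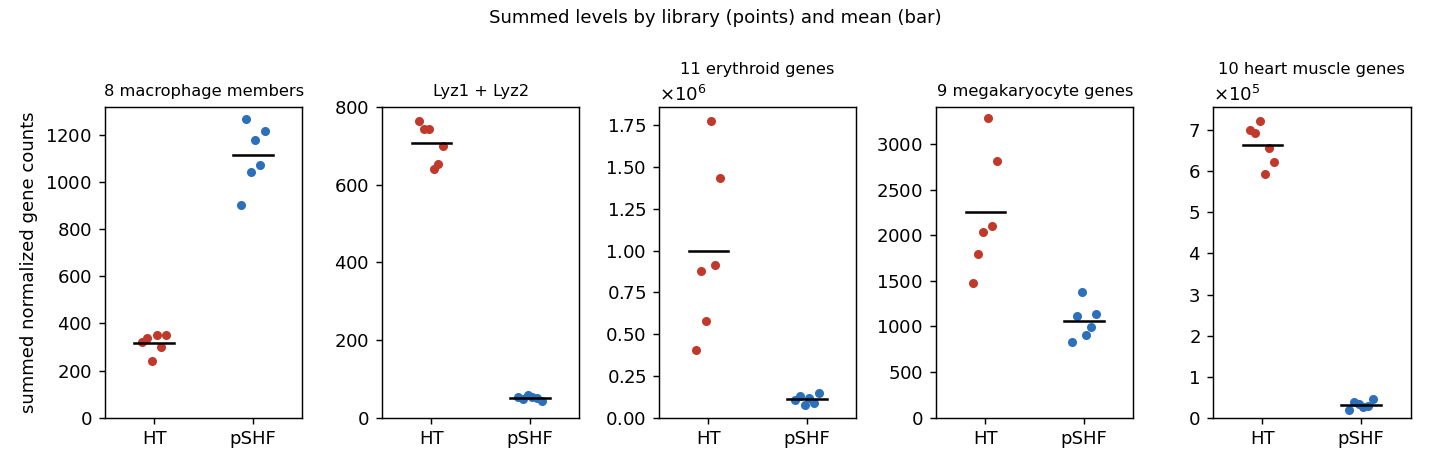
Summed normalized gene counts per library (points) and their mean (bar) for the 8 macrophage members, the lysozyme pair, 11 erythroid genes, 9 megakaryocyte genes and 10 heart muscle genes, with HT left of pSHF in each panel and each vertical axis starting at 0. Of the 5 sums, that of the macrophage members is the one higher in pSHF, with 240.9 to 352.5 in HT libraries and 903.3 to 1268 in pSHF libraries. Among sums not drawn, those of lymphoid, granulocyte and posterior second heart field genes also had the higher mean in pSHF. Those of endothelial genes, blood progenitor genes and complement genes other than C1q had the higher mean in HT.

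Within a tissue, 9 relations between the members or with the erythroid sum were examined over 6 libraries on the log2 scale, and none passed an adjusted p of 0.05 (exact permutation tests, two-sided, Benjamini-Hochberg over the 9). In pSHF, summed C1q and Csf1r had a Pearson r of 0.897 (exact p = 0.0361, adjusted p = 0.115) and a Spearman rho of 0.943 (exact p = 0.0167), and r was 0.408 without the 2 libraries farthest from the median of Csf1r. In HT the same relation had an r of 0.675 (exact p = 0.197, adjusted p = 0.296; rho 0.486, exact p = 0.356), and r was -0.869 without the 2 farthest libraries, so it rested on them. Lyz2 and the summed erythroid genes had an r of -0.785 in HT (exact p = 0.0639, adjusted p = 0.115; rho -0.886, exact p = 0.0333) and -0.844 in pSHF (exact p = 0.0306, adjusted p = 0.115; rho -0.771, exact p = 0.103), and these became -0.377 in HT and -0.441 in pSHF without the 2 farthest libraries. The remaining relations were also short of the threshold: r was 0.416 for Lyz2 and Lyz1 in HT (exact p = 0.397, adjusted p = 0.511), -0.140 in HT (exact p = 0.847, adjusted p = 0.847) and -0.836 in pSHF (exact p = 0.0528, adjusted p = 0.115) for summed C1q and Lyz2, and 0.262 in HT (exact p = 0.628, adjusted p = 0.706) and 0.806 in pSHF (exact p = 0.0528, adjusted p = 0.115) for summed C1q and the erythroid sum. Without the 2 farthest libraries, r for summed C1q and the erythroid sum was 0.950 in HT and 0.709 in pSHF. Likewise, r was then 0.285 for Lyz2 and Lyz1 in HT, and -0.503 in HT and -0.713 in pSHF for summed C1q and Lyz2.

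Among 13410 genes with a mean of at least 20, the 5 whose residuals about the tissue means were most like those of Lyz2 over the 12 libraries were Leng1 (Pearson r 0.920), Mdk (0.909), Smarcd1 (0.863), Map2k7 (0.861) and Tmem120a (0.851). For summed C1q they were Rad51d (0.879), Thra (0.870), Vps8 (0.862), Mdm2 (0.843) and Tshz2 (0.836). No macrophage gene of the lists stood among either 5, and the lists of 5 share no gene. The values share the depth and scaling of each library and are a description. Each is among the highest of 13410 correlations over 12 libraries, and such a selection gives high values by itself.

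The depth rebuilt from the worth of 1 read was 20634400 to 25645300 reads in HT libraries and 19089500 to 26287300 in pSHF libraries. Normalized gene counts of a library summed to more in HT than in pSHF, 24136600 to 25035000 against 20552700 to 20787000. After scaling all libraries to an equal total, the median log2 difference of all genes was -0.26 in place of -0.018, and Lyz2 then stood at 3.27, C1qb at -2.38, Mrc1 at -2.38 and Csf1r at -1.60. The raw count table, also deposited, held only 233865 to 340434 counts per library, 12 of them from the members over all HT libraries and 32 over all pSHF libraries. In it the 8 macrophage members had 6 counts in HT and 31 in pSHF, and the lysozymes 6 in HT and 1 in pSHF, and no member passed the count filter of the edgeR test. In the authors' deposited table the log2 fold changes (HT over pSHF) of the 8 macrophage members ran from -2.21 for C1qb to -1.33 for Csf1r, and that of Lyz2 was 3.54.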

How the data were processed

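Poly-A RNA-seq of 6 HT and 6 pSHF samples was analysed from 2 deposited tables. Per the submitters' processing notes the authors used STAR, DESeq2 and the build mm10, while their versions, the annotation and the tool that counted reads were not stated. The leading table holds, per the file headers, a deposited signal per library that is called normalized gene counts here, together with the authors' log2 fold change with standard error, Wald score and p-value. Its low values were whole multiples of 1 step per library for 46.5 to 49.4% of values below 20.5 reads (tolerance 0.01 reads), so gene counts divided by a size factor are only part of how it was made, and depths rebuilt from the step are approximate. The other table holds deposited raw counts at a small part of that depth. Since headers give a tissue and a code for each library but no replicate, only the tissue set the groups.

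Members and gene lists were chosen with earlier results of these data known. Genes averaging at least 5 across all 12 libraries were fitted with limma 3.58.1 (trend) on log2(value + 1), with Benjamini-Hochberg adjustment over the 14909 genes tested and a threshold of 0.05. The fit was tested on simulated data. Member differences are differences of mean log2 values, with no test. Named genes are all members, the lysozyme neighbours, for each list the 2 largest and 2 smallest differences past the threshold, and the 5 genes most like Lyz2 or summed C1q. Others named in the text were chosen after their values had been seen, and some genes that the rule takes are left out. Transcripts, positions and exon lengths are from GENCODE M21 for GRCm38, which need not be the authors' annotation. Alternatives were other pseudocounts, filters, scalings and thresholds, limma without trend, leaving out each library, and edgeR 4.0.16 on the raw counts. R 4.3.3, SciPy 1.17.1, pandas 2.3.3 and Biopython 1.88 were used.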

Additional observations from a re-analysis of the deposited data

Results flagged for a closer look

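In groups of 6 libraries, a value was singled out where its gap to the nearest other library exceeded Dixon's critical share of the group's range. Chance does this in about 1 in 20 groups, and 7 of the 155 groups examined were singled out.

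In pSHF library MR13, Mrc1 stood at 230.2 normalized gene counts, against 312.1 to 353.7 in the other 5 pSHF libraries, and without that library its log2 difference was -2.22. The 42 macrophage genes that are not members summed to 5439 in MR13, against 5919 to 6205 in the other pSHF libraries, and without it 28 of them were called, 7 higher in HT and 21 higher in pSHF. Cd33 stood at 4.44 in HT library MR26, against 0 to 1.11 in the other HT libraries. C1s1 stood at 12.4 in HT library MR28R, against 0 to 4.19 in the others, and without it the log2 difference was -4.16. Gp9 stood at 92.7 in pSHF library MR15, against 28.8 to 49.3 in the others. Myl7 stood at 32991 in HT library MR28R, the library with the highest erythroid share, against 40134 to 43090 in the others. Myl2 stood at 125.5 in pSHF library MR18, against 23.8 to 54.6 in the others.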

How the results depend on the processing

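No paired analysis was possible because the table columns carry library codes and no replicate number. No member changed direction under another pseudocount, another scaling or the loss of a library. Among macrophage genes that are not members, 28 to 30 were called with 1 library left out (7 higher in HT and 21 to 23 higher in pSHF), and 13 rather than 23 were higher in pSHF under a minimum mean of 20, which leaves fewer genes to test. In the raw counts, edgeR tested 3370 genes and called 850 higher in HT and 779 higher in pSHF. It tested 2 of these macrophage genes and called 0, higher in HT 0 and higher in pSHF 0, with 1 at an unadjusted p under 0.05 and a lowest adjusted p of 0.0795. Cct2 was turned round there, to a log2 difference of 0.95, and the cause was not tested. After scaling all libraries to an equal total, limma called 3917 genes higher in HT and 8185 higher in pSHF, in place of 5708 higher in HT and 5968 higher in pSHF, and 6 of the macrophage genes higher in HT and 24 higher in pSHF. Leaving out a library gave 5582 to 5669 genes higher in HT and 5820 to 5968 higher in pSHF. The relation of summed C1q with Csf1r in HT turned to -0.869 without its 2 farthest libraries, and that of summed C1q with the erythroid sum in HT rose from 0.262 to 0.950. Depth limits the low members: Tyrobp had as few as 8 rebuilt reads in an HT library and C1qc as few as 10.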
